A study of Homo sapiens with 4 samples.

Results

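Cadherins and protocadherins are cell surface proteins that bind their counterparts on neighbouring cells through extracellular cadherin repeats. The genes described here are those whose symbol is CDH followed by a number, or PCDH followed by letters or digits, 93 of the 23228 gene rows in the deposited count files. They comprise 23 cadherins, 13 non-clustered protocadherins and 57 clustered protocadherins, which lie in 3 gene clusters (PCDHA, PCDHB and PCDHG) on chromosome 5. Daoy cells, a human medulloblastoma line, were sequenced as RNA libraries; they carried a stably expressed PELP1 shRNA (n = 2 libraries) or a control shRNA (n = 2 libraries). Both kinds of cell had been transduced with lentivirus and grown in DMEM with 10% FBS, and total RNA was made into libraries with an Illumina TruSeq total RNA kit and read as 50 bp single-end reads. PELP1 is a scaffold protein and coregulator of nuclear receptors, and the series title places PELP1 in the context of NF-κB signalling and medulloblastoma progression. The labels do not say how many PELP1 shRNA sequences were used, whether the cells were clones or pools, or whether duplicates came from separate cultures. The p-values thus reflect library-to-library variation alone, which could be technical.

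Classical cadherins hold cells together at adherens junctions, where their cytoplasmic tails bind p120-catenin and beta-catenin, and beta-catenin binds alpha-catenin and through it actin. N-cadherin (CDH2) is the main classical cadherin of neural cells, including the cerebellar granule cell lineage from which many medulloblastomas arise. Clustered protocadherins give neurons a surface identity: each variable exon of the PCDHA and PCDHG clusters has its own promoter and is spliced to constant exons shared by the whole cluster, whereas PCDHB genes have no constant exons. Most of these promoters hold a conserved element around the letters CGCT, and the nearby binding of CTCF and cohesin takes part in choosing which of them are used.

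The libraries held 29221640 and 26760085 counts in genes with the PELP1 shRNA, against 24052542 and 26629578 with the control shRNA. Levels are counts per 1000000 counts in genes (CPM) after TMM scaling, differences are log2 fold changes of PELP1 shRNA over control shRNA with their standard error (SE), and the threshold was a false discovery rate (FDR) below 0.05 in edgeR's quasi-likelihood test over 14972 genes. PELP1 had 55.6 and 49.7 CPM in the PELP1 shRNA libraries, against 168.2 and 185.2 CPM in the control libraries, a change of −1.75 ± 0.05 (SE; FDR = 1.54e-33). Of all genes tested, 58.1% passed the threshold, 28.6% being higher and 29.5% lower with the PELP1 shRNA, and the median log2 fold change was 0.00. When libraries were scaled by their size alone, 63.2% of the calls were in the higher direction, against 49.1% with TMM. Of 21 markers of the cell types looked at, 18 were tested, 9 being higher and 5 lower. Granule lineage markers were mixed: ATOH1 had 2 and 0 counts with the PELP1 shRNA, against 2 and 3 with the control shRNA, and BARHL1 at most 2 in any library. ZIC1 averaged 19.0 CPM with the PELP1 shRNA and 21.0 CPM with the control shRNA and did not pass (FDR = 0.122), while ZIC2 (0.26, FDR = 0.00877), PAX6 (0.53, FDR = 1.96e-07) and OTX2 (0.48, FDR = 0.00192) were higher. From the same list, GLI2 (−0.71, FDR = 2.16e-13) and PTCH1 (−0.51, FDR = 3.42e-09) were lower, and GLI1 was higher (0.8, FDR = 0.0332). Of the neuronal markers TUBB3 was lower (−0.99, FDR = 1.35e-25), SYP higher (0.83, FDR = 2.6e-07) and MAP2 did not pass (FDR = 0.558). Of the neural progenitor markers, VIM averaged 3892 CPM with the PELP1 shRNA and 5546 CPM with the control shRNA (−0.51, FDR = 1.48e-21). SOX2 was also lower (−0.33, FDR = 0.0176), and NES did not pass (0.47, FDR = 0.12). Of the glial markers, OLIG2 was higher (0.54, FDR = 0.0123), and GFAP is described below. COL1A1 averaged 3724 CPM with the PELP1 shRNA and 3282 CPM with the control shRNA (0.18, FDR = 2.19e-05). The part of these markers in the results on cadherins and protocadherins was not tested.

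Of the 93 members, 88 had a count in at least 1 library and 66 had enough counts to be tested; the other 27 summed to at most 39 counts each over the 4 libraries. Of the 66 tested, 17 were higher with the PELP1 shRNA (25.8%, against 28.6% of all genes), 15 were lower (22.7%, against 29.5%) and 34 did not pass. Their median was 0.11 on the log2 scale. The share of members called, 48.5%, was below the 58.1% of all genes. The 2 groups did not overlap in 51 of the 66 members tested, and in 11635 of the 14972 genes tested. A lack of overlap, given below for single members, was thus common among all genes. Of 12 cadherins tested, 1 was higher and 6 were lower (8.33% and 50%, against 28.6% and 29.5% of all genes). Of 9 non-clustered protocadherins, 2 were higher and 4 lower (22.2% and 44.4%). Of 45 clustered protocadherins, 14 were higher and 5 lower (31.1% and 11.1%). The higher share of clustered protocadherins was thus near that of all genes, and their lower share was below it. Of the members tested, 10 reached the count minimum in both libraries of only 1 group, so their difference is partly built into the filter. These were CDH5, CDH6, CDH20, PCDH7 and PCDH19 (called lower), PCDH20 and PCDHGB5 (called higher), and CDH26, PCDH17 and PCDHGA1 (not past the threshold). The other 56 members held 15 higher and 10 lower calls. With a filter of at least 1 CPM in 2 libraries, 3 cadherins were called lower and the cadherin median was 0.05, against −0.20 over the 12 tested here.

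**Figure D1:**
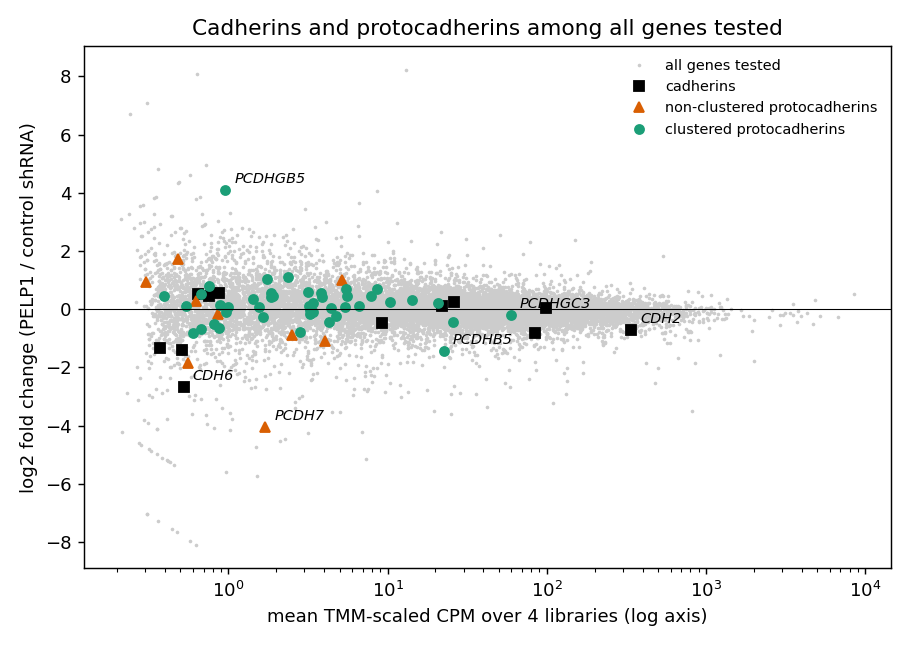
Log2 fold change (PELP1 shRNA over control shRNA) against the mean TMM-scaled CPM over 4 libraries (log axis) for all 14972 genes tested (grey), with cadherins as squares, non-clustered protocadherins as triangles and clustered protocadherins as circles. Most members lie within the grey cloud near 0. PCDHGB5 stands at 4.08 and PCDH7 at −4.05, and the abundant CDH2 at −0.71.

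Assuming a biological coefficient of variation of 20% in place of the estimated 2.99%, 9 of the 32 called members still passed: CDH6, PCDH1, PCDH7, PCDH10, PCDH19, PCDH20, PCDHB5, PCDHGA2 and PCDHGB5. Tested against a 1.5-fold change, 11 passed, namely those 9 with CDH2 and CDH13. Over all 14972 genes tested, 685 were higher and 640 lower with the assumed variation, and 709 and 733 against a 1.5-fold change. CDH6, PCDH7, PCDH19, PCDH20 and PCDHGB5 reached the count minimum in both libraries of only 1 group. Their large differences are thus partly built into the filter. In bulk RNA, fewer cells carrying a transcript and less transcript per cell cannot be told apart.

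The promoters of the clustered genes carry the conserved element named above, so the windows around it are shown before the values. RefSeq promoters (GRCh38.p14, 250 bases before to 50 after each gene start) were found for 47 of the 57 clustered members, and 45 of them matched GRCh37 chromosome 5 exactly once, the build of the count files (hg19). From 110 bases upstream to 30 bases downstream of the gene start, 43 held the letters GNCGCT. The windows below give 10 bases on each side of the most upstream such match, on the plus strand, 5′ to 3′, with the match in capitals and the GRCh37 position beside the name. In the PCDHB cluster they are shown for both genes that fell (PCDHB5 and PCDHB15), 3 that rose (PCDHB3, PCDHB7 and PCDHB8), 2 that did not pass (PCDHB10 and PCDHB14) and the scarce PCDHB1.
PCDHB5 (chr5:140514765-140514790): gacgcctggtGGCGCTgcaggctaag
PCDHB15 (chr5:140624886-140624911): aacgcatggtGGCGCTgcaggctaag
PCDHB3 (chr5:140479981-140480006): aacgcatggtGGCGCTgttgactaag
PCDHB7 (chr5:140552151-140552176): aacgcaaggtGGCGCTgctggctaaa
PCDHB8 (chr5:140557362-140557387): gacccgtggtGGCGCTgcaggataag
PCDHB10 (chr5:140571876-140571901): gccacacggtGGCGCTgcaggctaaa
PCDHB14 (chr5:140602839-140602864): gacacatggtGGCGCTacaggataag
PCDHB1 (chr5:140430863-140430888): ggggagttgaGTCGCTcaatgcaaat
The 7 tested genes of this set share TGGCGCT, and PCDHB1 lacks it. Searched on both strands of the whole 300 bases, TGGCGCT was present in 13 of 14 PCDHB promoters, 0 of 13 PCDHA promoters and 3 of 20 PCDHG promoters, against 4.08% of all 35116 promoters in the table. It was in 7 of 7 PCDHB genes that rose, 2 of 2 that fell and 4 of 4 that did not pass. Every tested PCDHB gene with a promoter held these letters, so their presence could not have separated these genes by their change. The motifs were picked after these promoters had been compared with each other.

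In the PCDHG cluster the windows are shown for the gene with the largest fitted rise (PCDHGB5), for PCDHGB4 with the same window, for PCDHGA2, PCDHGA4 and PCDHGB1, which rose, and PCDHGC3, PCDHGA11 and PCDHGB6, which fell.
PCDHGB5 (chr5:140777434-140777459): gactctgggcGCCGCTgttggccaaa
PCDHGB4 (chr5:140767188-140767213): gactctgggcGCCGCTgttggccaaa
PCDHGA2 (chr5:140718274-140718299): gcctctgagcGTCGCTgttgaccacc
PCDHGA4 (chr5:140734531-140734556): gactctgggtGTCGCTgttcaccaat
PCDHGB1 (chr5:140729596-140729621): acctctgggcGCCGCTgtcgaccaaa
PCDHGC3 (chr5:140855451-140855476): gactctgtgtGCCGCTgtcggccaat
PCDHGA11 (chr5:140800543-140800568): ggctctaggcGCCGCTgctcaccaat
PCDHGB6 (chr5:140787495-140787520): gcctctgggcGCCGCTgtcggccagt
PCDHGB5 and PCDHGB4 have the same 26 letters. The letters GCCGCTG (both strands) were in 12 of 20 PCDHG promoters, against 11.1% of all promoters and 0 of 13 PCDHA and 0 of 14 PCDHB promoters. They were in 2 of 4 PCDHG genes that rose, 3 of 3 that fell and 3 of 8 that did not pass.

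In the PCDHA cluster the windows are shown for PCDHA10 and PCDHAC1, which rose, and for PCDHA6, PCDHA4 and PCDHA5, which did not pass.
PCDHA10 (chr5:140235430-140235455): gccaccggatGTCGCTgtcgtccaca
PCDHAC1 (chr5:140305809-140305834): agaaggtgtgGTCGCTcacgttcacc
PCDHA6 (chr5:140207486-140207511): gccgcatgatGTCGCTgtctaccatg
PCDHA4 (chr5:140186568-140186593): gccacatgatGTCGCTctttaccaca
PCDHA5 (chr5:140201131-140201156): tccacatgatGTCGCTggacaccgga
TGTCGCT (both strands) was in 10 of 13 PCDHA promoters, 1 of 14 PCDHB promoters and 3 of 20 PCDHG promoters, against 1.76% of all. It was in 1 of the 3 PCDHA genes that rose and in 8 of 9 that did not pass. The 3 motifs overlap, since each extends the shorter GNCGCT, which 44% of all promoters hold. The match began 40 to 83 bases upstream of the gene start in PCDHA (median 57), 41 to 97 in PCDHG (median 62) and up to 86 in PCDHB (median 63.5). The PCDHB range includes 13 bases upstream for PCDHB5 and 1 base downstream for PCDHB8, where the annotated start lies close to the element.

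N-cadherin, the most abundant cadherin in these cells both by counts and per kilobase of exon, fell with the PELP1 shRNA. CDH2 (chromosome 18, hg19 25512843 to 25757910, minus strand) had 257.7 and 255.3 CPM in the PELP1 shRNA libraries, against 422.3 and 416.7 CPM in the control libraries, a log2 fold change of −0.71 ± 0.04 (SE; FDR = 2.27e-26). Both PELP1 shRNA libraries were below both control libraries, at 61.1% of the control level. Per kilobase of exon its level was 29.9 CPM with the PELP1 shRNA and 48.9 CPM with the control shRNA. R-cadherin (CDH4, chromosome 20), the other type I cadherin tested, had 29.4 and 27.7 CPM with the PELP1 shRNA, against 22.5 and 25.1 CPM with the control shRNA, a difference of 0.26 ± 0.08 (SE; FDR = 0.00267). The groups did not overlap, but the CDH4 call was lost without PELP1 shRNA replicate 1 (FDR = 0.0565) and without control shRNA replicate 1 (FDR = 0.0721). The other type I cadherins had too few counts to be tested. E-cadherin (CDH1), the cadherin of epithelia, had 0 and 0 counts against 3 and 2, P-cadherin (CDH3) had 2 and 8 against 2 and 2, and M-cadherin (CDH15), known from muscle, had 3 and 3 against 5 and 4. A count of 3 corresponded to 0.0994 to 0.128 CPM per library.

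T-cadherin (CDH13, chromosome 16, 82660570 to 83834245, plus strand), which is held in the membrane by a GPI anchor and lacks the catenin-binding tail, also fell. It had 59.9 and 62.3 CPM with the PELP1 shRNA, against 109.9 and 105.7 CPM with the control shRNA, a log2 fold change of −0.82 ± 0.05 (SE; FDR = 1.33e-22). The level was 56.7% of control and the groups were far apart. Transcripts on the opposite strand overlap 2354 exonic bases of CDH13 and 307 of CDH2, and the strand setting of the counting is not given in the sources used here, so their reads cannot be told apart. CDH23, which forms the tip links of hair cells, and CDH26 had at most 1.05 CPM in any library and did not pass the threshold (FDR = 0.288 for CDH23 and 0.266 for CDH26).

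Of the 7 type II cadherins tested, CDH18 was the gene called lower with enough counts in both groups, and CDH5, CDH6 and CDH20 were called lower after passing the filter through the control libraries alone (29.5% of all genes were lower). CDH11, known from mesenchymal cells and by counts the second most abundant cadherin with the PELP1 shRNA and the third with the control shRNA, had 99.0 and 101.8 CPM in the PELP1 shRNA libraries, against 97.3 and 96.5 CPM in the control libraries, and did not pass (0.05 ± 0.05, SE; FDR = 0.356). Scaled by library size alone, CDH11 was called higher (0.14, FDR = 0.00716). CDH24 had 23.3 and 22.3 CPM with the PELP1 shRNA, against 20.7 and 21.6 CPM with the control shRNA, and did not pass either (0.11 ± 0.08, SE; FDR = 0.238), although it too passed with library size alone (0.20, FDR = 0.0267). CDH18, a brain type II cadherin, had 7.35 and 8.2 CPM against 10.3 and 11.0 CPM in the control libraries and fell by 0.46 ± 0.11 on the log2 scale (SE; FDR = 0.000415). CDH18 was lower in both PELP1 shRNA libraries than in both control libraries.

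CDH5, CDH6 and CDH20 were scarce. CDH6 had 6 and 2 counts with the PELP1 shRNA, against 20 and 25 with the control shRNA, a scaled ratio of control to PELP1 shRNA of 6.61 (95% interval 3.09 to 16.2, counting error only; FDR = 5.61e-06). Its log2 fold change was −2.69 in all libraries and −3.57 without PELP1 shRNA replicate 1, and in both PELP1 shRNA libraries it was below both control libraries. VE-cadherin (CDH5), the cadherin of endothelial junctions, had 8 and 8 counts against 21 and 15 (control over PELP1 shRNA 2.65, 1.43 to 5.11; FDR = 0.00701). The CDH5 call was lost without PELP1 shRNA replicate 1 (FDR = 0.062), without control shRNA replicate 1 (FDR = 0.157) and with DESeq2 (FDR = 0.111). CDH20 had 7 and 5 counts against 14 and 12 (2.55, 1.24 to 5.54; FDR = 0.0246), and was not called when any 1 of the 4 libraries was left out (FDR = 0.0636 to 0.178) or with DESeq2 (FDR = 0.196). PECAM1, another endothelial marker, had 57 and 49 counts with the PELP1 shRNA, against 11 and 7 with the control shRNA (FDR = 5.26e-08). PECAM1 reached the count minimum in both libraries of the PELP1 shRNA group alone, and CDH5 in those of the control group alone. The opposite directions of these genes are thus partly built into the filter. CDH22 had at most 1.06 CPM in any library and did not pass (FDR = 0.169). CDH7, CDH10, CDH12 and CDH19 had at most 6 counts in any library and were not tested, and CDH8, CDH9 and CDH16 had no count.

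Summed over all 23 cadherin genes, the level was 480.3 and 481.3 CPM with the PELP1 shRNA, against 687.8 and 681.2 CPM with the control shRNA, a ratio of 0.702 (0.748 with library size alone). CDH2 made up 53.6% and 53.0% of cadherin counts in the PELP1 shRNA libraries, against 61.4% and 61.2% in the control libraries. The share of CDH11 was 20.6% and 21.1% against 14.1% and 14.2%, and that of CDH13 was 12.5% and 12.9% against 16% and 15.5%. CDH2 thus stayed the leading cadherin in all 4 libraries, with CDH11 taking a larger share beside it.

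**Figure D2:**
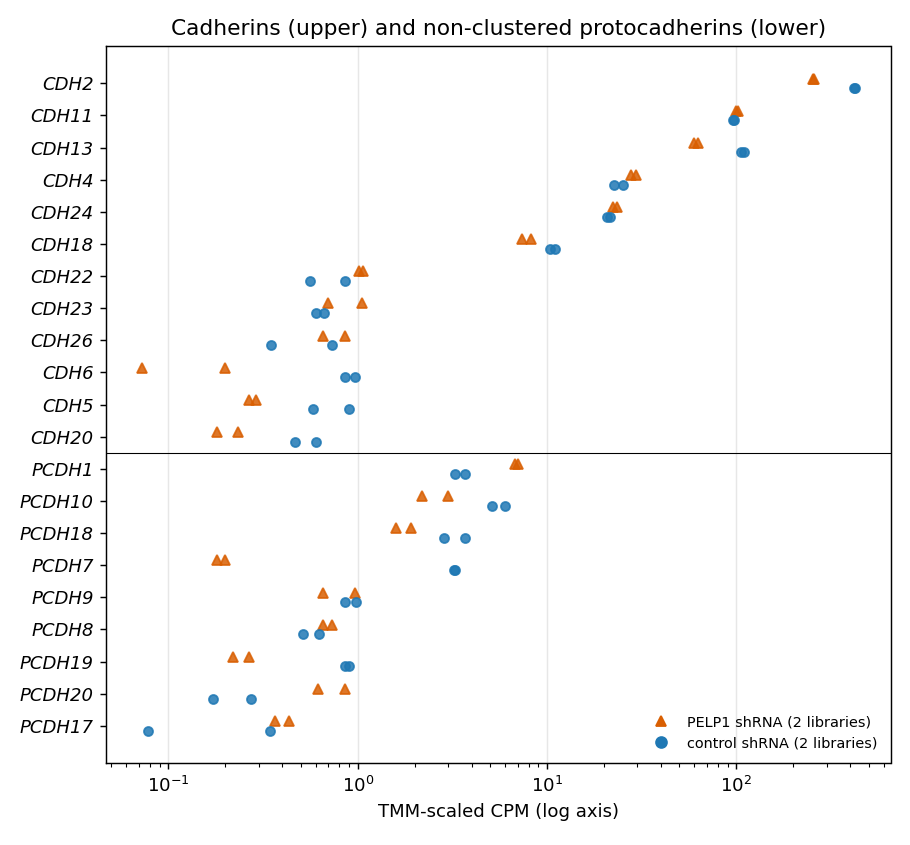
TMM-scaled CPM (log axis) of the tested cadherins (upper part) and non-clustered protocadherins (lower part) in each library, with PELP1 shRNA libraries as triangles above control shRNA libraries as circles. CDH2, CDH13 and PCDH7 have both triangles left of both circles, PCDH1 has both triangles to the right, and CDH11 has all 4 libraries between 96.5 and 101.8 CPM.

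Non-clustered protocadherins are divided by their cytoplasmic motifs into delta-1 and delta-2 genes, and none exceeded 7.02 CPM in any library. Among delta-1 genes, PCDH7 had 6 and 5 counts with the PELP1 shRNA, against 76 and 83 with the control shRNA, or 0.199 and 0.181 CPM against 3.25 and 3.22 CPM. The scaled ratio of control to PELP1 shRNA was 17.0 (95% interval 9.25 to 34.7, counting error only), and the fitted log2 fold change was −4.05 ± 0.34 (SE; FDR = 2.18e-16). Both PELP1 shRNA libraries were far below both control libraries, the largest fold decrease among the tested members. PCDH7 lies on the plus strand of chromosome 4 (30721991 to 31148427), and 1602 of its exonic bases overlap transcripts on the opposite strand. PCDH1 (chromosome 5, outside the clusters, 141232655 to 141258811) went the other way: it had 7.02 and 6.78 CPM with the PELP1 shRNA, against 3.68 and 3.26 CPM with the control shRNA, a rise of 1.00 ± 0.15 (SE; FDR = 3.55e-08), with no overlap between the groups. PCDH9 did not pass (0.961 and 0.653 CPM against 0.984 and 0.855 CPM; FDR = 0.684).

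Of the 5 delta-2 genes, 3 were called lower (29.5% of all genes were), among them PCDH19, which passed the filter through the control libraries alone. PCDH10, which recruits the WAVE complex that controls actin, had 2.98 and 2.18 CPM with the PELP1 shRNA, against 5.13 and 5.98 CPM with the control shRNA, a change of −1.10 ± 0.17 (SE; FDR = 8.78e-08). PCDH18 had 1.59 and 1.92 CPM against 3.68 and 2.87 CPM in the control libraries, a change of −0.90 ± 0.21 (SE; FDR = 0.000198). PCDH19, an X-linked gene mutated in an epilepsy of girls and known to bind N-cadherin, had 8 and 6 counts against 21 and 22 (control over PELP1 shRNA 3.61, 1.94 to 7.15; FDR = 0.000316). In each of these genes both PELP1 shRNA libraries were below both control libraries. PCDH8 (FDR = 0.558) and PCDH17 (FDR = 0.158) did not pass. PCDH20, outside both delta groups here, had 26 and 17 counts against 4 and 7 (PELP1 shRNA over control 3.32, 1.69 to 7.15; FDR = 0.00179). The PCDH20 call was lost without PELP1 shRNA replicate 1 (FDR = 0.0575) and with DESeq2 (FDR = 0.0624), and 4659 of its exonic bases also belong to another gene on the same strand in the annotation.

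Together the 13 non-clustered protocadherins summed to 15.3 and 13.9 CPM with the PELP1 shRNA, against 18.9 and 18.6 CPM with the control shRNA. That is a small total beside the cadherins or any of the 3 clusters. PCDH11X had no count in any library, and PCDH12 and PCDH15 were too low to test, with at most 15 counts in any library.

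The PCDHB cluster lies on the plus strand of chromosome 5 between 140430959 (PCDHB1) and 140628933 (PCDHB15). Its genes have no constant exons, but some are near copies of each other, and in the annotation PCDHB8, PCDHB9, PCDHB14, PCDHB15 and PCDHB16 share 169 to 379 exonic bases with another gene on the same strand. Of 17 tested genes, 7 rose and 2 fell, with a median log2 fold change of 0.21 (28.6% of all genes higher, median 0.00). The leading gene of the control cells was the one that fell most. PCDHB5 had 12.6 and 11.5 CPM with the PELP1 shRNA, against 32.3 and 33.4 CPM with the control shRNA, a change of −1.44 ± 0.08 (SE; FDR = 1.14e-23). Its level was 36.8% of control and the groups were far apart. PCDHB5 supplied 11.1% and 10.1% of PCDHB counts in the PELP1 shRNA libraries, against 27.3% and 28.1% in the control libraries. By counts it ranked 3 and 4 in the cluster with the PELP1 shRNA and 1 and 1 with the control shRNA, where PCDHB2 took rank 1 and 1 against 2 and 2.

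The promoter of PCDHB5 (chr5:140514538-140514837, GRCh37, plus strand) is given in full because this gene fell most in the cluster, beside that of PCDHB8 (chr5:140557121-140557420), the PCDHB gene that rose with the smallest FDR. Capitals mark the most upstream GNCGCT of the searched range.
PCDHB5: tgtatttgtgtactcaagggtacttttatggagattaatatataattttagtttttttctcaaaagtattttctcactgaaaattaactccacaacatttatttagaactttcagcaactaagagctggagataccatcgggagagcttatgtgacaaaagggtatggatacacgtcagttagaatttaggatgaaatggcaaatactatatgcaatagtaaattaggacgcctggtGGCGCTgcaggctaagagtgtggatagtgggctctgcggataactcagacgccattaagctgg
PCDHB8: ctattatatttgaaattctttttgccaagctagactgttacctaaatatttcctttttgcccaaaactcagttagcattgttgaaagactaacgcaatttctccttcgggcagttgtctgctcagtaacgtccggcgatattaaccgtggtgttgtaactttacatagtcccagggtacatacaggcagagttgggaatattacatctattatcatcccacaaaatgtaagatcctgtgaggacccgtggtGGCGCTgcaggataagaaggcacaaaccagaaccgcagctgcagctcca
Aligned end to end, the pair shared 52% of the aligned positions, gaps included, and PCDHB5 and PCDHB15, the other PCDHB gene that fell, shared 49.2%. PCDHB8 had 10.5 and 10.8 CPM with the PELP1 shRNA, against 6.67 and 6.53 CPM with the control shRNA, a rise of 0.69 ± 0.12 (SE; FDR = 6.62e-07). PCDHB15 had 1.99 and 2.14 CPM against 3.29 and 3.81 CPM, a change of −0.79 ± 0.19 (SE; FDR = 0.00042). In both genes the groups did not overlap.

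The other PCDHB genes that rose did so by smaller or less certain amounts. PCDHB7 had 6.59 and 6.96 CPM with the PELP1 shRNA, against 4.45 and 4.0 CPM with the control shRNA (0.68 ± 0.14, SE; FDR = 3.44e-05). PCDHB3 had 2.22 and 2.47 CPM against 1.37 and 0.932 CPM (1.03 ± 0.26, SE; FDR = 0.000421). PCDHB16 had 15.2 and 16.3 CPM against 12.6 and 12.8 CPM (0.31 ± 0.10, SE; FDR = 0.00363). In these 3 genes both PELP1 shRNA libraries were above both control libraries, and their calls were also made with each library left out in turn, although PCDHB16 missed the threshold with DESeq2 (FDR = 0.0529). PCDHB2 had 21.7 and 22.9 CPM against 19.7 and 18.5 CPM (0.22 ± 0.08, SE; FDR = 0.0168), but was not called without PELP1 shRNA replicate 2 (FDR = 0.125) or control shRNA replicate 2 (FDR = 0.141). PCDHB13 had 10.8 and 11.8 CPM against 9.75 and 9.21 CPM (0.25 ± 0.11, SE; FDR = 0.0416), and was not called without PELP1 shRNA replicate 2 (FDR = 0.235), control shRNA replicate 1 (FDR = 0.0623) or control shRNA replicate 2 (FDR = 0.203). PCDHB4 had 2.12 and 2.28 CPM against 1.5 and 1.52 CPM (0.54 ± 0.24, SE; FDR = 0.0449), and was not called when any 1 library was left out (FDR = 0.0791 to 0.154). With DESeq2 none of these 3 genes was called (FDR = 0.111 for PCDHB2, 0.212 for PCDHB13 and 0.241 for PCDHB4), and PCDHB4 also missed with limma-voom (FDR = 0.0541). Each was higher in both PELP1 shRNA libraries than in both control libraries.

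Of the 8 PCDHB genes that did not pass, PCDHB17 had the highest counts, with 6.89 and 6.82 CPM in the PELP1 shRNA libraries, against 6.46 and 6.37 CPM in the control libraries (0.10 ± 0.13, SE; FDR = 0.541). PCDHB17 and PCDHB18 were not found in the annotation, so whether they code for protein is not given here. PCDHB6 had 4.8 and 3.88 CPM against 4.79 and 5.48 CPM (FDR = 0.174), and PCDHB14 had 4.74 and 4.24 CPM against 4.23 and 4.47 CPM (FDR = 0.815). PCDHB9, PCDHB10, PCDHB11, PCDHB12 and PCDHB18 ranged from 1.37 to 3.95 CPM, with differences of −0.26 to 0.44 on the log2 scale. PCDHB11 passed with library size alone (0.53, FDR = 0.0497). PCDHB1 had 17 and 10 counts against 3 and 4, and PCDHB19P, a pseudogene in the annotation, 12 and 6 against 6 and 8, both too few to test. Summed over the cluster the level was 113.9 and 114.5 CPM with the PELP1 shRNA, against 118.5 and 118.8 CPM with the control shRNA, a ratio of 0.963 (1.02 with library size alone, so its direction depends on the scaling). Without PCDHB5 the sum was 101.3 and 103.0 CPM against 86.1 and 85.4 CPM, a ratio of 1.19 (1.27 with library size alone). PCDHB5 was left out with its fall known, and leaving out an abundant gene that fell raises the ratio by itself.

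**Figure D3:**
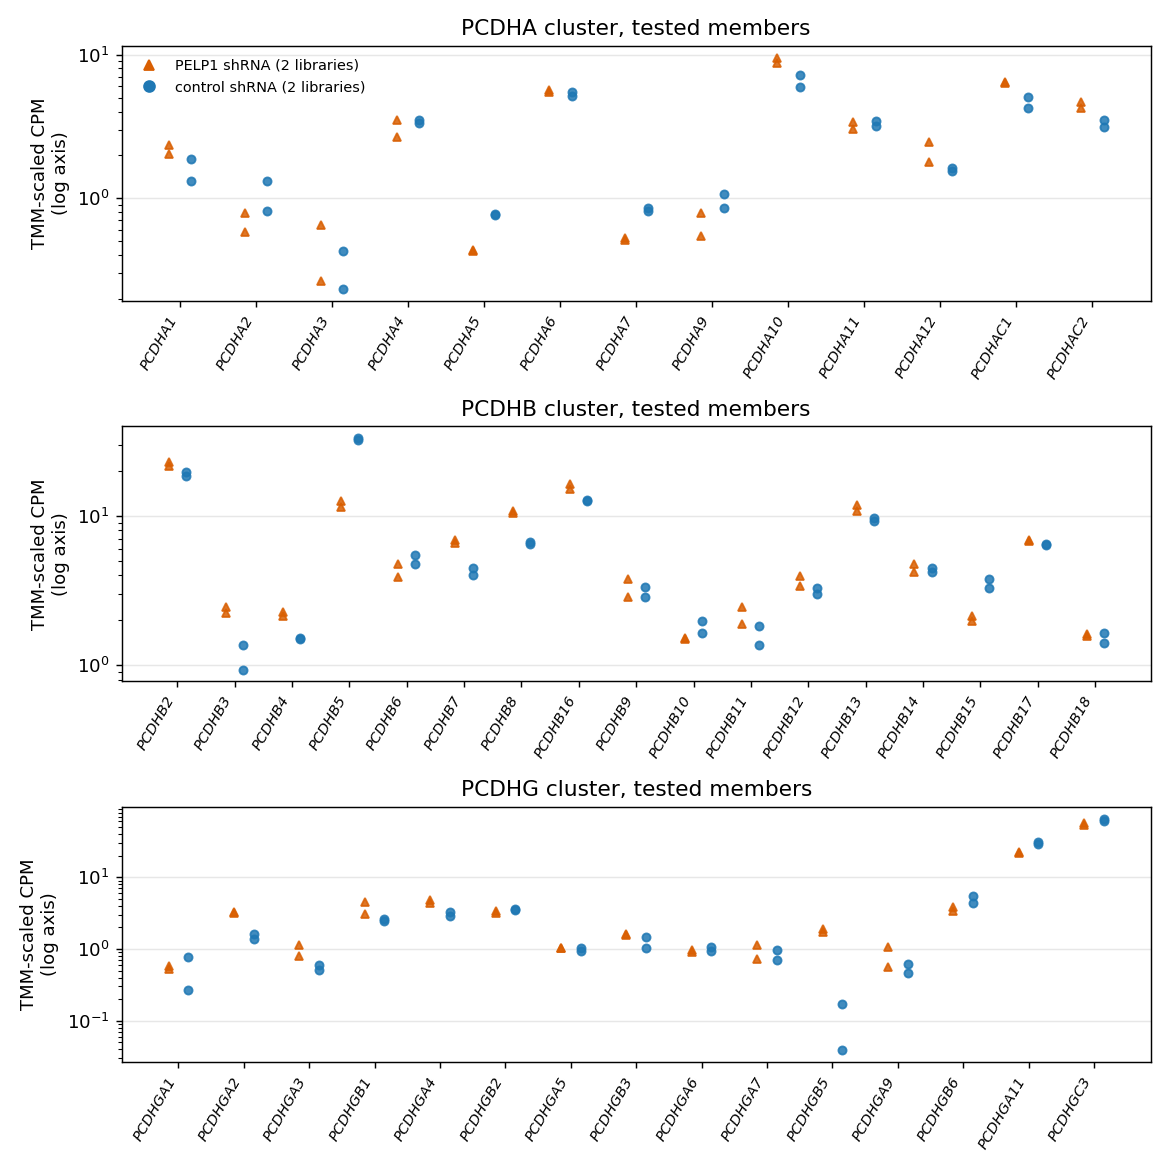
TMM-scaled CPM (log axes) of the tested genes of the PCDHA, PCDHB and PCDHG clusters in their order along the chromosome, PCDHB17 and PCDHB18 last, with PELP1 shRNA libraries as triangles left of control shRNA libraries as circles. PCDHB5 stands at 12.6 and 11.5 CPM with the PELP1 shRNA and at 32.3 and 33.4 CPM with the control shRNA, and PCDHGB5 has the lowest control libraries plotted, at 0.171 and 0.0389 CPM.

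In the PCDHG cluster (plus strand, 140710081 to 140892544) the annotation gives each gene but the pseudogene PCDHGB8P at least 2177 exonic bases that it shares with other genes on the same strand, so reads there cannot be given to 1 gene. Of 15 tested genes, 4 rose and 3 fell (46.7% called, against 58.1% of all genes), and the median log2 fold change was 0.16. PCDHGC3, a C-type gene with the highest counts of the cluster in all 4 libraries, had 53.9 and 56.5 CPM with the PELP1 shRNA, against 60.5 and 66.0 CPM with the control shRNA, a change of −0.20 ± 0.06 (SE; FDR = 0.00203). The PCDHGC3 call was lost without PELP1 shRNA replicate 1 (FDR = 0.0602), without control shRNA replicate 2 (FDR = 0.0992) and with library size alone (FDR = 0.0916). PCDHGA11 had 21.7 and 22.3 CPM against 29.0 and 30.8 CPM, a change of −0.45 ± 0.08 (SE; FDR = 7.92e-07), with the groups apart. PCDHGB6 had 3.88 and 3.37 CPM against 4.36 and 5.48 CPM (−0.44 ± 0.16, SE; FDR = 0.0152), and was not called without PELP1 shRNA replicate 2 (FDR = 0.122), without control shRNA replicate 2 (FDR = 0.297), with library size alone (FDR = 0.0504) or with DESeq2 (FDR = 0.152). So the genes that fell included the pair that supplies most PCDHG counts.

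PCDHGB5 was nearly absent from the control libraries. It had 52 and 52 counts with the PELP1 shRNA, against 4 and 1 with the control shRNA, or 1.72 and 1.89 CPM against 0.171 and 0.0389 CPM. The scaled ratio of PELP1 shRNA to control was 17.7 (95% interval 7.34 to 55.6, counting error only), and the fitted log2 fold change was 4.08 ± 0.47 (SE; FDR = 2.21e-11). The log2 value was 5.38 without control shRNA replicate 1 and 3.36 without control shRNA replicate 2, both past the threshold. By counts it ranked 8 and 8 of the 23 PCDHG genes with the PELP1 shRNA, against 19 and 22 with the control shRNA. PCDHGB4, which had the same 26-base window, had 3 and 3 counts against 10 and 7 and was too low to test. Their promoters (chr5:140777264-140777563 and chr5:140767015-140767314, GRCh37, plus strand) are given in full because PCDHGB5 had the largest fitted rise among the tested members and PCDHGB4 has the same window. Each holds 2 GNCGCT matches in the searched range, of which the upstream one is in capitals.
PCDHGB5: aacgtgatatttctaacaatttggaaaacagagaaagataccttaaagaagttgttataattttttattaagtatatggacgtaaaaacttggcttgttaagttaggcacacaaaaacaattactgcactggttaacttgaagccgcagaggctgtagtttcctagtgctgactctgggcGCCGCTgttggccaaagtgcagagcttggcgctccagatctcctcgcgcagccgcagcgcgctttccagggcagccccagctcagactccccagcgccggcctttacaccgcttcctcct
PCDHGB4: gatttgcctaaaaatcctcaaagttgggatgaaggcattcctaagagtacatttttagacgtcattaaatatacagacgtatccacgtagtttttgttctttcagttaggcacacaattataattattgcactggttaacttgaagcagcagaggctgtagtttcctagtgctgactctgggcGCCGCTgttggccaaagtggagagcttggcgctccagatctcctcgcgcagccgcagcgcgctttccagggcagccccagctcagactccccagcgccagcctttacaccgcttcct
They were identical at 249 of 311 aligned positions, gaps included (80.1%). PCDHGB5 starts at 140777514 and has no exonic overlap with transcripts on the opposite strand in the annotation.

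PCDHGA2 had 3.15 and 3.3 CPM with the PELP1 shRNA, against 1.63 and 1.36 CPM with the control shRNA, a rise of 1.11 ± 0.22 (SE; FDR = 1.08e-05). PCDHGA4 had 4.31 and 4.82 CPM against 3.25 and 2.91 CPM (0.57 ± 0.17, SE; FDR = 0.00306), and was not called with DESeq2 (FDR = 0.0703). PCDHGB1 had 4.54 and 3.08 CPM against 2.48 and 2.6 CPM (0.59 ± 0.19, SE; FDR = 0.00634), and was not called without PELP1 shRNA replicate 1 (FDR = 0.331) or with DESeq2 (FDR = 0.109). All 3 were higher in both PELP1 shRNA libraries than in both control libraries. The 8 PCDHG genes that did not pass were PCDHGA1, PCDHGA3, PCDHGA5, PCDHGA6, PCDHGA7, PCDHGA9, PCDHGB2 and PCDHGB3, with log2 differences of −0.11 to 0.81. Of these only PCDHGB2 exceeded 3 CPM, with 3.21 and 3.37 CPM against 3.64 and 3.46 CPM (FDR = 0.623). The other C-type genes of the cluster were too low to test: PCDHGC4, needed for the survival of cortical interneurons in mice, had 7 and 5 counts against 6 and 9, and PCDHGC5 had 9 and 5 against 9 and 16. PCDHGA8, PCDHGA10, PCDHGA12, PCDHGB7 and PCDHGB8P had at most 8 counts in any library.

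Summed over the cluster the level was 104.6 and 106.3 CPM with the PELP1 shRNA, against 112.5 and 120.0 CPM with the control shRNA, a ratio of 0.907. PCDHGC3 supplied 51.6% and 53.2% of these counts against 53.8% and 55.1%, and PCDHGA11 supplied 20.7% and 21.0% against 25.8% and 25.6%. Without this pair the remaining genes summed to 29.0 and 27.5 CPM with the PELP1 shRNA, against 23 and 23.2 CPM with the control shRNA, a ratio of 1.22. The summed direction was the same with library size alone, at 0.966 for the whole cluster and 1.30 without the pair. Both genes of the pair were left out with their falls known, which raises the ratio of the remaining genes by itself.

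The PCDHA cluster (plus strand, 140165721 to 140391932) had the lowest summed counts of the 3. Of 13 tested genes 3 rose and none fell (23.1% called, against 58.1% of all genes), with a median of 0.07. PCDHA10 had 9.54 and 8.74 CPM with the PELP1 shRNA, against 5.99 and 7.19 CPM with the control shRNA, a rise of 0.47 ± 0.12 (SE; FDR = 0.000788), and ranked 1 by counts in all 4 libraries. The C-type genes, which neurons are known to use more uniformly than the others, rose too. PCDHAC1 had 6.46 and 6.38 CPM against 5.09 and 4.23 CPM (0.47 ± 0.14, SE; FDR = 0.00373), and was not called without control shRNA replicate 2 (FDR = 0.108) or with DESeq2 (FDR = 0.0777). PCDHAC2 had 4.64 and 4.24 CPM against 3.51 and 3.15 CPM (0.42 ± 0.17, SE; FDR = 0.0256), and was not called without PELP1 shRNA replicate 1 (FDR = 0.146), without control shRNA replicate 2 (FDR = 0.17) or with DESeq2 (FDR = 0.193). In these 3 genes the groups did not overlap.

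Among the PCDHA genes that did not pass, PCDHA6 had 5.67 and 5.48 CPM with the PELP1 shRNA, against 5.13 and 5.48 CPM with the control shRNA (FDR = 0.693). PCDHA11 had 3.41 and 3.05 CPM against 3.17 and 3.46 CPM (FDR = 0.879), and PCDHA4 had 2.65 and 3.48 CPM against 3.34 and 3.5 CPM (FDR = 0.457). These 3 genes had overlapping groups. PCDHA1 had 2.02 and 2.36 CPM against 1.88 and 1.32 CPM (0.46 ± 0.24, SE; FDR = 0.0978), and passed without control shRNA replicate 1 (FDR = 0.0464) and with library size alone (FDR = 0.0428). PCDHA12 had 2.45 and 1.78 CPM against 1.54 and 1.63 CPM (FDR = 0.132). PCDHA2, PCDHA5, PCDHA7 and PCDHA9 had log2 differences of −0.83 to −0.50, PCDHA3 one of 0.46, and these 5 genes had at most 1.32 CPM in any library and did not pass. PCDHA8 and PCDHA13 had at most 9 counts in any library and were not tested. The cluster summed to 40.0 and 38.7 CPM with the PELP1 shRNA, against 33.7 and 34.4 CPM with the control shRNA, a ratio of 1.15 (1.23 with library size alone).

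**Figure D4:**
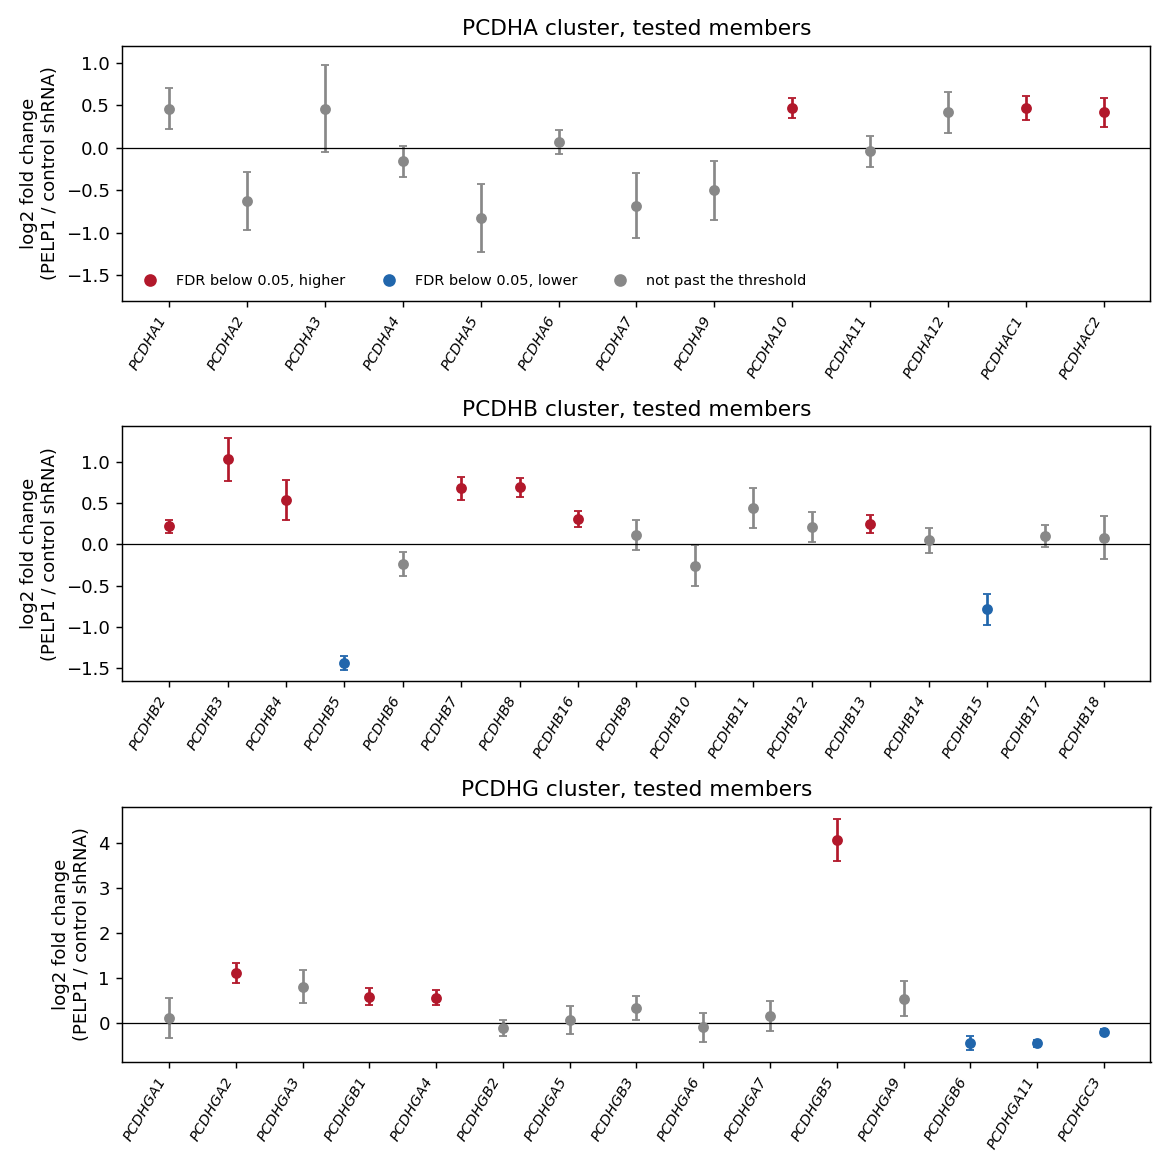
Log2 fold change (PELP1 shRNA over control shRNA, bars ± 1 SE) of the tested genes of each cluster in chromosome order, PCDHB17 and PCDHB18 last, coloured by whether they passed an FDR of 0.05. Calls in both directions occur within a cluster: PCDHB5 stands at −1.44 next to PCDHB4 at 0.54, and in PCDHG the rise of PCDHGB5 (4.08) stands in the same row as the falls of PCDHGB6 (−0.44), PCDHGA11 (−0.45) and PCDHGC3 (−0.20).

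Near copies limit what single-gene counts show in these clusters. For 55 clustered members found in the annotation, exonic bases shared with another gene on the same strand were left out. The median share of the remaining 50-base exonic stretches with another exact copy on chromosome 5 was 9.06%, and 25 members exceeded 10%. The share was 45.2% for PCDHB8, 33.2% for PCDHA6, 24.3% for PCDHB13, 21.6% for PCDHB2, 19.6% for PCDHGB5, 12.3% for PCDHB5, 0.809% for PCDHGA11 and 0.0% for PCDHGC3. Reads from such stretches align to more than 1 place and fall in the row for alignments that were not unique. The bases left out, 221 of 2750 in PCDHB8 and 2177 of 5430 in PCDHGC3, limit the counts as well. These shares thus do not rank the genes by how complete their levels are. Opposite-strand transcripts overlap 501 exonic bases of PCDHB5 and 1796 of PCDHB2.

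Beta-catenin, alpha-catenin and p120-catenin, the core partners of classical cadherins, did not pass the threshold, whereas plakoglobin rose. Beta-catenin (CTNNB1) had 354.8 and 349.6 CPM with the PELP1 shRNA, against 354.6 and 343.9 CPM with the control shRNA (0.01 ± 0.04, SE; FDR = 0.788), and alpha-catenin (CTNNA1) had 628.9 and 631.6 CPM against 606.4 and 612.5 CPM (0.05 ± 0.03, SE; FDR = 0.224). With library size alone both passed (FDR = 0.0106 for CTNNB1 and 0.000227 for CTNNA1), and CTNNA1 also passed with upper-quartile factors (FDR = 0.00841). p120-catenin (CTNND1) had 4.87 and 4.42 CPM against 5.52 and 5.48 CPM (FDR = 0.153). Plakoglobin (JUP), the catenin shared with desmosomes, rose by 0.52 ± 0.05 (SE; FDR = 1.37e-08), with 177.2 and 162.2 CPM against 109.8 and 126.5 CPM. Of 16 tested adherens junction genes, 6 were higher and 5 lower (37.5% and 31.2%, against 28.6% and 29.5% of all genes; median 0.03). Among them the p120 relative ARVCF rose by 0.59 and the junction protein PLEKHA7 by 0.58, while CTNNAL1 fell by 0.65 and nectin-2 (PVRL2) by 0.32. Of 7 desmosome genes, 2 were higher and 5 lower (28.6% and 71.4%, against 28.6% and 29.5% of all genes; median −0.26), with plakophilin PKP2 at 0.98 and PERP at 0.43 against desmoglein DSG2 at −0.35 and PKP3 at −0.30. The lower calls include PKP1, with 13 and 5 counts against 19 and 19 (FDR = 0.00941). PKP1 reached the count minimum in both libraries of the control group alone, so its difference is partly built into the filter. The PKP3 call was lost in 5 of 11 alternatives, with upper-quartile factors (FDR = 0.0537), library size alone (FDR = 0.103), DESeq2 (FDR = 0.143), without PELP1 shRNA replicate 2 (FDR = 0.128) and without control shRNA replicate 2 (FDR = 0.0979).

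Cadherin superfamily genes outside the symbol rule moved in both directions, 4 higher and 5 lower of 14 (28.6% and 35.7%, against 28.6% and 29.5% of all genes; median −0.07). CELSR2, a seven-pass cadherin of planar polarity, had 60.7 and 57.1 CPM with the PELP1 shRNA, against 20.6 and 20.3 CPM with the control shRNA (1.53 ± 0.07, SE; FDR = 1.1e-29), and the calsyntenin CLSTN2 rose by 1.29. FAT3, a giant atypical cadherin of neurons, had 1.56 and 1.23 CPM against 10.5 and 11.1 CPM (−2.94 ± 0.16, SE; FDR = 1.02e-24), and DCHS1, the ligand of FAT4, fell by 0.71. Of 9 genes that repress E-cadherin, 1 was higher (ZEB2, 0.14, FDR = 0.0425) and 5 were lower (55.6%, against 29.5% of all genes; median −0.45), among them SNAI2 at −0.89 and ZEB1 at −0.79. The ZEB2 call was lost with DESeq2 (FDR = 0.158), with the replicate block (FDR = 0.0845) and with any 1 library left out (FDR = 0.0515 to 0.217). CDH1 had no count in either PELP1 shRNA library.

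Proteases that shed cadherins held 3 higher and 2 lower of 8 (37.5% and 25%, against 28.6% and 29.5% of all genes; median 0.09), with the gamma-secretase subunits PSENEN at 0.40, PSEN2 at 0.28 and APH1B at −0.33, and the sheddase ADAM17 at −0.25. The APH1B call was lost with library size alone (FDR = 0.0692), with DESeq2 (FDR = 0.12), without PELP1 shRNA replicate 1 (FDR = 0.0795) and without control shRNA replicate 1 (FDR = 0.09). Of 19 factors known to act at clustered protocadherin promoters or their chromatin, 6 were higher and 6 lower (31.6% each; median 0.01). The histone methyltransferase SETDB1 rose by 0.45 and the cohesin regulator PDS5B by 0.35, whereas WIZ fell by 0.71 and SMCHD1, which silences clustered protocadherin genes in mice, by 0.33. CTCF (−0.01, FDR = 0.833) and the cohesin subunits RAD21 (0.00, FDR = 0.925), SMC1A (0.02, FDR = 0.612) and STAG2 (−0.07, FDR = 0.175) did not pass. The cohesin subunits STAG1 (0.23, FDR = 7.57e-06) and SMC3 (0.13, FDR = 0.0105) were higher. Of the cohesin loader genes, NIPBL was higher (0.16, FDR = 0.00234) and MAU2 lower (−0.28, FDR = 8.63e-06). Of 16 cytoplasmic partners of protocadherins 5 were higher and 5 lower (31.2% each; median 0.00), including the WAVE subunits WASF3 at 0.95 and WASF1 at 0.76, and the kinase FYN at −0.34 and FEZ1 at −0.33. Whether any of these moves with the members was not tested.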

How the data were processed

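Per the submitters' processing notes, TopHat2 2.0.8b aligned the 50 bp single-end reads of 4 libraries to hg19, and HTSeq made the gene counts. Which HTSeq version, mode, strand setting and annotation were used is not given in the sources used here. The authors deposited raw read counts for 23228 gene symbols, plus 5 summary rows without a gene. Of the file totals, reads without a unique alignment took 29.38% and 29.57% with the PELP1 shRNA and 30.82% and 30.71% with the control shRNA, and reads called ambiguous took 0.579% to 0.602%. Summary rows entered neither library sizes nor tests.

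The main test was edgeR 4.0.16 (R 4.3.3, glmQLFit and glmQLFTest), with robust dispersions, TMM factors (0.967 to 1.033) and filterByExpr, with the shRNA group as the only term. P-values, two-sided, were adjusted by Benjamini and Hochberg over all 14972 genes tested. Alternatives were upper-quartile factors, library size alone, DESeq2 1.42.0, limma-voom (limma 3.58.1), no filter, at least 1 CPM in 2 libraries, the replicate number as a block, an assumed coefficient of variation, glmTreat against 1.5-fold, and each library left out. Replicates of a group differed by more than counting noise (chi-square per degree of freedom 2.374 for the PELP1 shRNA and 2.469 for the control shRNA, against 56.13 to 61.96 between groups). Each library counted as a sample, although the excess over counting noise does not show whether duplicates came from separate cultures. An exact permutation test of a single value, 2 libraries against 2, cannot give a p below 0.333.

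Coordinates and exon lengths came from GENCODE v44 lifted to GRCh37, where 91 of the 93 symbols were found (not PCDHB17 and PCDHB18). CPM per kilobase used exon bases not shared with a gene on the same strand. The plan was to leave out bases shared on either strand, but antisense transcripts then left some genes almost none. Intervals of ratios and limits of low counts cover counting error alone: without molecular identifiers, reads are not independent molecules.

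The members, lists and tests were chosen with earlier results of these data known. By the naming rule, members averaging at least 1 CPM are given per library. Members below it are given by counts where their call passes with a summed count of at least 20, and otherwise by ranges. The rule also took PELP1, CTNNB1, CTNNA1, CTNND1, JUP and up to 2 genes per direction of each partner list, those with the largest change past the threshold and at least 1 CPM. Cell type markers are given besides. CTCF, RAD21, SMC1A, STAG2, STAG1, SMC3, NIPBL and MAU2 were added after their values were seen.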

Additional observations from a re-analysis of the deposited data

How the results depend on the processing

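All 32 calls kept their direction under every alternative in which the gene was tested, DESeq2 called 20 of them, and 16 were called under each of the 11 alternatives other than the assumed variation and the 1.5-fold test. CDH6 and PCDH19 were called in 10 and not tested with the 1 CPM filter. Higher and lower calls over all genes (4276 and 4424) became 685 and 640 with an assumed coefficient of variation of 20%, and 709 and 733 against a 1.5-fold change. Cadherins called higher (1) numbered 3 with library size alone, 0 with the assumed variation, 0 against 1.5-fold, and 0 to 1 with a library left out. Cadherins called lower (6) numbered 3 with at least 1 CPM in 2 libraries, 1 with the assumed variation and 3 against 1.5-fold, and the cadherin median of −0.20 was 0.05 with the 1 CPM filter, which leaves fewer genes. Non-clustered protocadherins called higher (2) numbered 1 with DESeq2, 1 with the 1 CPM filter, and 1 to 2 with a library left out. Clustered protocadherins called higher (14) numbered 6 with DESeq2, 2 with the assumed variation, 2 against 1.5-fold, and 9 (without control shRNA replicate 2) to 13 with a library left out. Those called lower (5) numbered 3 with library size alone, 1 with the assumed variation, 1 against 1.5-fold, and 3 (without control shRNA replicate 2) to 5 with a library left out. Library size alone moved the median of all genes to 0.09.

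Values that changed sign belonged to genes that did not pass. PCDHA11 became 0.0173 with upper-quartile factors and 0.0544 with library size alone. With a library left out in turn, log2 values spanned −0.121 to 0.0396 for PCDHA11, −0.368 to 0.0276 for PCDHA4, −0.036 to 0.12 for PCDHB14, −0.111 to 0.284 for PCDHB9, −0.029 to 0.185 for PCDHB18, −0.00675 to 0.129 for PCDHGA5 and −0.00922 to 0.0328 for CTNNB1. The cause of these changes was not tested.

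The labels do not say whether same-numbered libraries shared a culture or batch. Deviations from the group means of same-numbered libraries correlated at −0.072 over 13616 genes with a mean of at least 1 CPM. GFAP, described below, was higher in library 1 than in library 2 of both groups. Whether same-numbered libraries shared a culture or batch was not tested. With the replicate number as a block, 4010 genes were higher and 4151 lower, and 31 members were called, all among the 32; PCDHB13 missed the threshold (FDR = 0.0578). With 2 libraries per group, genes of a few counts such as CDH5, CDH20 and PCDH20 are limited by depth.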

Other observations

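A few values outside the comparisons above concern genes that mark other cell types. GFAP, an astrocyte gene, had 27.8 and 10.4 CPM in PELP1 shRNA libraries 1 and 2, against 37.2 and 11.8 CPM in control shRNA libraries 1 and 2, so it differed between the libraries of each group by more than between the groups (log2 fold change −0.32 ± 0.98, SE; FDR = 0.82). EPCAM, an epithelial adhesion gene, had 21 and 24 counts with the PELP1 shRNA, against 9 and 3 with the control shRNA (FDR = 0.00222), in libraries with at most 3 counts of CDH1. EPCAM reached the count minimum in both libraries of the PELP1 shRNA group alone, so its difference is partly built into the filter. PTPRC, a leukocyte gene, had 9 and 5 counts against 6 and 6. Their part in the results on cadherins and protocadherins was not tested.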
